A study of Mus musculus with 20 samples.

Results

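The genes described here are 10 transcripts of the small intestinal brush border, namely the sugar transporters Slc5a1, Slc2a2 and Slc2a5, the peptide transporter Slc15a1, the disaccharidases Sis, Lct and Mgam, and the peptidases Anpep, Enpep and Dpp4. They were chosen by gene symbol from a list of their roles, with earlier results of these data known. All 10 were found among the 23020 genes of the table and among the 9521 genes abundant enough to be tested. The data are 20 bulk libraries of transcript 3′ ends, each from the small intestinal crypts of C57BL/6 mice. Mice deficient for Xiap (Xiap-/-), an inhibitor of apoptosis, were set against wild-type (WT) mice under either of a pair of housing schemes. There were 5 co-housed Xiap-/- mice, 5 co-housed WT mice, 4 Xiap-/- mice housed apart and 6 WT mice housed apart, where co-housed mice of both genotypes shared cages for 4 weeks and mice housed apart lived with their own genotype. The labels give no age, sex, cage or day of collection, name neither the deleted part of Xiap nor the segment of intestine, and do not say whether the replicate numbers link mice of different groups.

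Carbohydrates and proteins are finished at the surface of the enterocyte. Sucrase-isomaltase (Sis), lactase (Lct) and maltase-glucoamylase (Mgam) release monosaccharides, which Slc5a1 (SGLT1, sodium-coupled glucose and galactose uptake) and Slc2a5 (GLUT5, fructose uptake) carry across the apical membrane and Slc2a2 (GLUT2) carries out towards the blood. Aminopeptidase N (Anpep), aminopeptidase A (Enpep) and dipeptidyl peptidase 4 (Dpp4) trim peptides, and Slc15a1 (PEPT1) takes up di- and tripeptides with protons. These products belong to the mature absorptive cells of the villus, and their transcripts are low in the dividing cells of the crypt base.

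The promoters of the 3 disaccharidase genes are shown because Sis and Lct varied together over the libraries while Mgam varied apart from both. Each line gives the 250 bases before the annotated start, 5′ to 3′ on the strand of the gene, from RefSeq on GRCm38.p6. Capitals mark matches, on either strand, to letters known from binding sites of CDX2 (CATAAA) and GATA factors (AGATAA). Letters of HNF1 sites (GTTAAT) were planned too but not searched. Unmarked bases may hold them, as attaac does on the other strand in the Sis line.
Sis, chr3:72967864-72968113, minus strand: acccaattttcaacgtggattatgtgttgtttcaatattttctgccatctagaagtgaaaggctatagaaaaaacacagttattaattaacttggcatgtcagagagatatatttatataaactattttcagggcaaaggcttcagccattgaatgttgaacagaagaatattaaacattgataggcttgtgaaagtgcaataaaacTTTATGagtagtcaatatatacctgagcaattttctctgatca
Lct, chr1:128328319-128328568, minus strand: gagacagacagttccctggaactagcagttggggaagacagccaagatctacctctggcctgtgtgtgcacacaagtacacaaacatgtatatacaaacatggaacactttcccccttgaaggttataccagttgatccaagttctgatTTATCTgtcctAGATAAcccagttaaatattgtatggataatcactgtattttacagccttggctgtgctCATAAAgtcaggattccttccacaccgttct
Mgam, chr6:40628581-40628830, plus strand: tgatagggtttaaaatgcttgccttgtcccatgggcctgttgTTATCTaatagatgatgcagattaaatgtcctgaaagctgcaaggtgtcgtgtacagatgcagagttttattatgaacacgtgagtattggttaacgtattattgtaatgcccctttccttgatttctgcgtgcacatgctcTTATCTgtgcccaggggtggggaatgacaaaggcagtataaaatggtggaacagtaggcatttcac

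In these lines Sis held 1 CDX2 match at -43 to -38, counted from the annotated start. Lct held a CDX2 match at -31 to -26 and GATA matches at -101 to -96 and at -90 to -85. Mgam held GATA matches at -208 to -203 and at -66 to -61, and no CDX2 match. The search covered 300 bases of each promoter (250 before and 50 after the start), and Dpp4 also had a GATA match at -32 to -27. The remaining 6 genes had no match to these letters in that window. Of 32851 RefSeq promoter windows of the same length, 11.9% held the CDX2 letters and 11.2% the GATA letters. The HNF4 letters CAAAGTCCA were in 0.475% of the windows and in 0 of the 10. None of these matches overlapped another. The levels of the matching factors are given further on. The promoters were picked with the correlations known, and whether any match bears on how the genes varied was not tested.

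Mice are numbered as their libraries are. All values are normalized levels on a log2 scale as the authors deposited them, with an unstated transformation and unknown depth, so tests compare mice for 1 gene, and a gene's mean level only shows where it stands on this scale. As a rough sign of depth, the share of rare genes standing above their own median over the libraries was taken in each library. Its group medians were 8.63% in co-housed Xiap-/- mice, 8.52% in co-housed WT mice, 13.3% in Xiap-/- mice housed apart and 6.93% in WT mice housed apart, with 32.1% in 1 Xiap-/- mouse housed apart. The Xiap transcript averaged 6.62 ± 0.22 in co-housed Xiap-/- mice and 6.67 ± 0.20 in co-housed WT mice (SD, n = 5 each). Housed apart, it averaged 6.38 ± 0.10 in Xiap-/- mice (SD, n = 4) and 6.81 ± 0.17 in WT mice (SD, n = 6). A 3′ count can lie outside the deleted part, so these values do not check the genotype. One protocol passage names liver as the source of the RNA, whereas the other labels name crypts. Mean levels over the 20 libraries were 14.17 for the Paneth cell marker Defa24 and 13.75 for the villus marker Fabp2. The hepatocyte marker Alb was near the bottom of the range at -2.70. Of the other measured hepatocyte markers, Cps1, which enterocytes also express, was at 9.14 and Ttr at 4.11. The rest lay between -0.31 (Serpina1c) and 1.24 (Apoh).

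**Figure D1:**
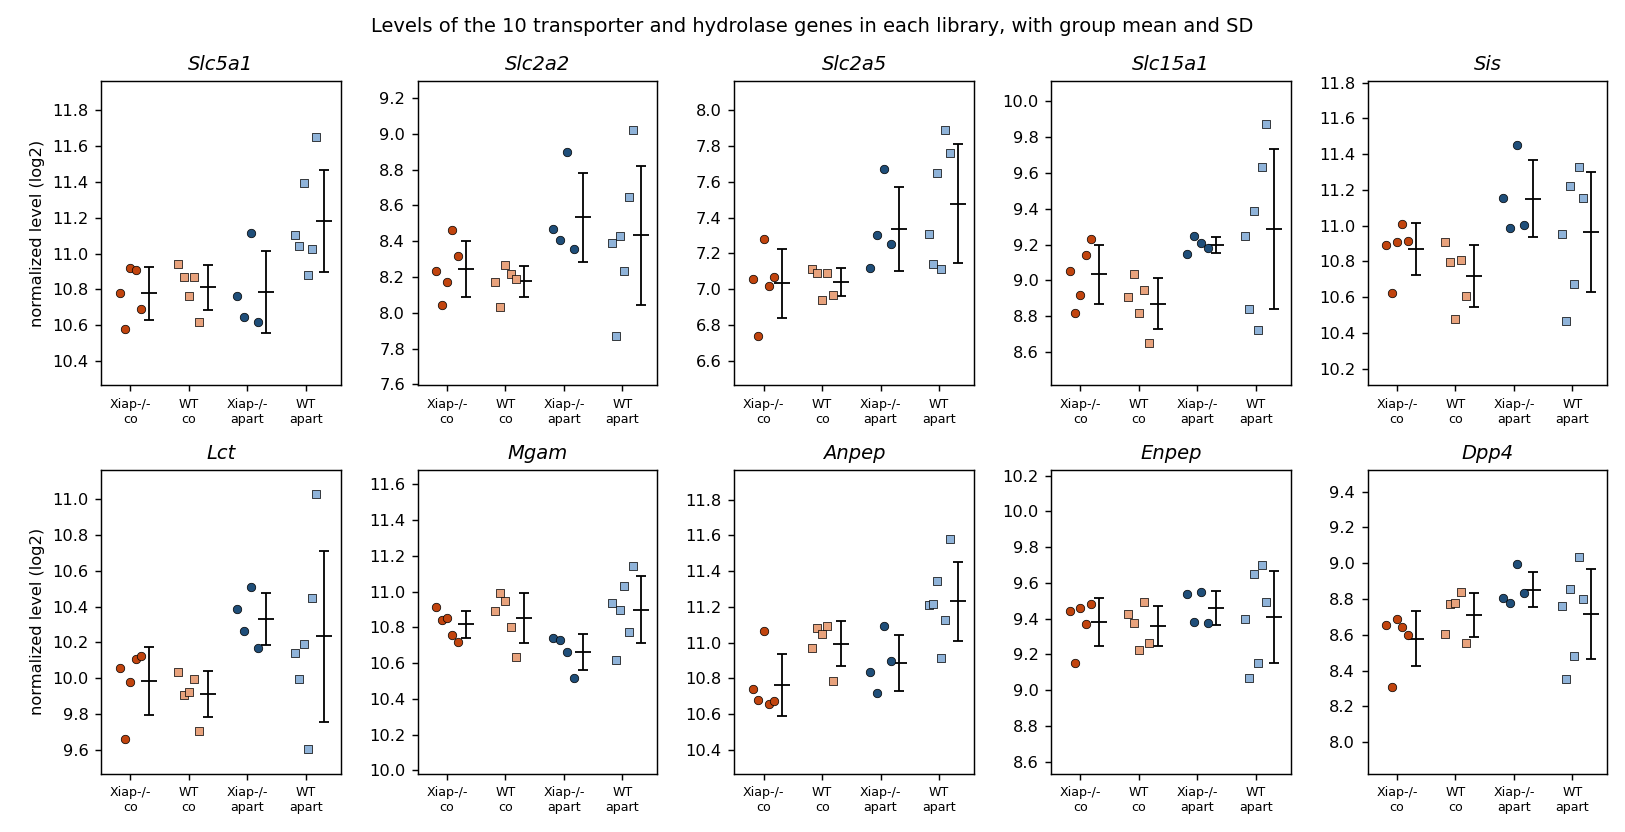
Normalized level (log2, vertical axis, with an equal span in every panel) of the 10 genes in each library (points), with the group mean and SD beside them; circles are Xiap-/- and squares WT mice, and "co" and "apart" name the housing. In every panel the WT mice housed apart have the largest SD, and the co-housed groups lie at or below the middle of that spread for most genes.

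Co-housed mice had lower mean levels than mice housed apart for most of these genes, in both genotypes, and no single gene passed the test within a genotype. Among Xiap-/- mice the mean was lower in co-housed mice for 9 of 10 genes, the exception being Mgam, and among WT mice for 10 of 10, whereas after quantile normalization the counts were 8 of 10 in Xiap-/- and 7 of 10 in WT mice. By limma with Benjamini-Hochberg adjustment over the 9521 genes, 0 of 10 genes passed an adjusted p of 0.05 in Xiap-/- mice, where 0.147% of all genes passed, and 0 of 10 in WT mice, where 0% passed. At an unadjusted p under 0.05 the counts were 2 of 10 genes in Xiap-/- mice, beside 1072 of all genes, and 4 of 10 in WT mice, beside 969. The median difference of the 10 genes, co-housed minus housed apart, was -0.22 in Xiap-/- mice, beside 0.00 over all genes tested, and -0.25 in WT mice, beside -0.01. After quantile normalization it was -0.16 in both genotypes. These housing comparisons share no mouse. The mean was lower in both for 90% of the 10 genes (9, or 6 after quantile normalization) and for 29.8% of all genes tested (2833). The 10 genes were chosen with earlier results of these data known. Most of them also varied together over the libraries, so they are not 10 independent observations.

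Slc2a5, the apical fructose transporter, had the smallest p of the 10 genes among WT mice. It lies on chromosome 4 (150119283 to 150144169, plus strand, GENCODE M21 on GRCm38, as for all gene positions here). Its level was 7.06, 6.74, 7.28, 7.02 and 7.07 in the co-housed Xiap-/- mice, against 7.12, 7.30, 7.67 and 7.25 in the Xiap-/- mice housed apart. In co-housed WT mice it was 7.11, 7.09, 6.94, 7.09 and 6.97, against a range of 7.11 to 7.89 with a median of 7.48 in the WT mice housed apart. Every co-housed WT mouse was below every WT mouse housed apart, by little at the nearest pair, and 1 co-housed Xiap-/- mouse overlapped the Xiap-/- mice housed apart. The differences were -0.30 ± 0.14 in Xiap-/- mice (SE; limma, adjusted p = 0.402) and -0.44 ± 0.12 in WT mice (adjusted p = 0.270). Without mouse 3 housed apart, the highest of its group, the difference in Xiap-/- mice was -0.19. Groups without overlap were found for 0.525% of all genes between the housings of WT mice, and among the 10 genes for Slc2a5 only.

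The other 3 transporters passed in neither genotype. Slc15a1, the di- and tripeptide transporter (chromosome 14, 121459621 to 121505252, minus strand), had levels of 9.05, 8.82, 8.92, 9.14 and 9.23 in co-housed Xiap-/- mice, against 9.15, 9.25, 9.21 and 9.18 in Xiap-/- mice housed apart. It had 8.90, 9.03, 8.82, 8.94 and 8.65 in co-housed WT mice, against 8.72 to 9.88 with a median of 9.32 in WT mice housed apart. The groups overlapped in both genotypes, and the Xiap-/- mice housed apart were the most alike of any group for any of the 10 genes, with an SD of 0.04. The differences were -0.16 ± 0.16 in Xiap-/- mice (SE; limma, adjusted p = 0.749) and -0.41 ± 0.14 in WT mice (adjusted p = 0.373).

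Slc5a1, the sodium-glucose cotransporter (chromosome 5, 33104219 to 33162870, plus strand), had levels of 10.78, 10.58, 10.92, 10.91 and 10.69 in co-housed Xiap-/- mice and 10.94, 10.87, 10.76, 10.87 and 10.62 in co-housed WT mice. Housed apart, it had 10.76, 10.65, 11.11 and 10.62 in Xiap-/- mice, and 10.88 to 11.65 with a median of 11.07 in WT mice. The 3 groups other than the WT mice housed apart thus covered nearly the same range, and their means, between 10.78 and 10.81, differed by less than their SDs. The housing difference was -0.01 ± 0.13 in Xiap-/- mice (SE; limma, adjusted p = 0.990) and -0.37 ± 0.12 in WT mice (adjusted p = 0.322), or -0.23 in WT mice after quantile normalization. The difference between these, 0.36 ± 0.18, did not pass either (adjusted p = 0.697). For that interaction 0 of the 10 genes passed, where 0.0105% of all genes did, and 1 of 10 had an unadjusted p under 0.05, beside 671 of all genes.

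Slc2a2, the facilitative glucose transporter (chromosome 3, 28697903 to 28731359, plus strand), was at 8.23, 8.04, 8.17, 8.46 and 8.32 in co-housed Xiap-/- mice, against 8.47, 8.41, 8.90 and 8.36 in Xiap-/- mice housed apart. In co-housed WT mice it was at 8.17, 8.03, 8.27, 8.22 and 8.19, against 7.87 to 9.02 with a median of 8.41 in WT mice housed apart. The co-housed WT mice lay within the span of the WT mice housed apart, and only 1 co-housed Xiap-/- mouse reached the lower Xiap-/- mice housed apart. The differences of -0.29 ± 0.15 in Xiap-/- mice and -0.26 ± 0.13 in WT mice did not pass (SE; limma, adjusted p = 0.476 and 0.521). They were -0.17 in Xiap-/- mice without mouse 3 housed apart and -0.14 in WT mice without mouse 6 housed apart.

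Of the disaccharidases, Lct and Sis had lower means in co-housed mice of both genotypes, and Mgam differed least. Lct (chromosome 1, 128284756 to 128328318, minus strand) was at 10.06, 9.66, 9.98, 10.11 and 10.12 in co-housed Xiap-/- mice, against 10.38, 10.27, 10.51 and 10.17 in Xiap-/- mice housed apart. These groups did not overlap, a separation seen for 5.63% of all genes between the housings of Xiap-/- mice and for 2 of the 10 genes, Lct and Dpp4. In co-housed WT mice Lct was at 10.03, 9.90, 9.92, 9.99 and 9.70, inside the range of 9.60 to 11.03 (median 10.16) of the WT mice housed apart. The differences were -0.35 ± 0.18 in Xiap-/- mice (SE; limma, adjusted p = 0.462) and -0.32 ± 0.16 in WT mice (adjusted p = 0.499). In WT mice it was -0.16 without mouse 6 housed apart, the highest of its group.

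Sis (chromosome 3, 72888557 to 72967863, minus strand) was at 10.89, 10.62, 10.91, 11.01 and 10.91 in co-housed Xiap-/- mice, against 11.15, 10.99, 11.45 and 11.01 in Xiap-/- mice housed apart. In co-housed WT mice it was at 10.91, 10.80, 10.48, 10.80 and 10.60, against 10.46 to 11.32 with a median of 11.05 in WT mice housed apart. In Xiap-/- mice only 1 co-housed mouse reached the lower mice housed apart, and in WT mice the groups overlapped broadly. The differences were -0.28 ± 0.14 in Xiap-/- mice (SE; limma, adjusted p = 0.451) and -0.25 ± 0.13 in WT mice (adjusted p = 0.513). It was -0.18 in Xiap-/- mice without mouse 3 housed apart, and -0.12 in WT mice after quantile normalization.

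Mgam (chromosome 6, 40628831 to 40769123, plus strand) was at 10.91, 10.84, 10.85, 10.76 and 10.72 in co-housed Xiap-/- mice, against 10.74, 10.73, 10.66 and 10.52 in Xiap-/- mice housed apart. In co-housed WT mice it was at 10.89, 10.99, 10.94, 10.80 and 10.63, against 10.61 to 11.14 with a median of 10.91 in WT mice housed apart. Its mean was thus higher in co-housed than in separately housed Xiap-/- mice, by 0.15 ± 0.11 (SE; limma, adjusted p = 0.615), and in WT mice the difference was -0.05 ± 0.10 (adjusted p = 0.894). Mgam had the smallest SD over all 20 libraries of the 10 genes, 0.15, and Lct the largest, 0.32.

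Of the peptidases, Dpp4 (chromosome 2, 62330073 to 62412231, minus strand), which releases dipeptides ending in proline or alanine, was at 8.65, 8.31, 8.69, 8.64 and 8.60 in co-housed Xiap-/- mice. It was at 8.80, 8.78, 8.99 and 8.83 in Xiap-/- mice housed apart, above all co-housed ones. In co-housed WT mice it was at 8.60, 8.77, 8.78, 8.84 and 8.56, within the range of 8.35 to 9.04 (median 8.78) of the WT mice housed apart. The difference was -0.28 ± 0.11 in Xiap-/- mice (SE; limma, adjusted p = 0.352) and -0.01 ± 0.10 in WT mice (adjusted p = 0.992). The difference between these was -0.27 ± 0.15 (adjusted p = 0.746).

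Enpep (chromosome 3, 129269175 to 129332720, minus strand), which removes acidic residues from peptide ends, had means of 9.38 ± 0.13 in co-housed Xiap-/- mice, 9.36 ± 0.11 in co-housed WT mice, 9.46 ± 0.10 in Xiap-/- mice housed apart and 9.41 ± 0.26 in WT mice housed apart (SD, n = 5, 5, 4 and 6). The 95% interval of its housing difference was -0.31 to 0.15 in Xiap-/- mice and -0.26 to 0.16 in WT mice. For Anpep the housing difference was -0.12 ± 0.12 in Xiap-/- mice (SE; limma, adjusted p = 0.751) and -0.24 ± 0.11 in WT mice (adjusted p = 0.470). It was -0.05 in Xiap-/- mice without mouse 3 housed apart, and -0.10 in WT mice after quantile normalization.

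**Figure D2:**
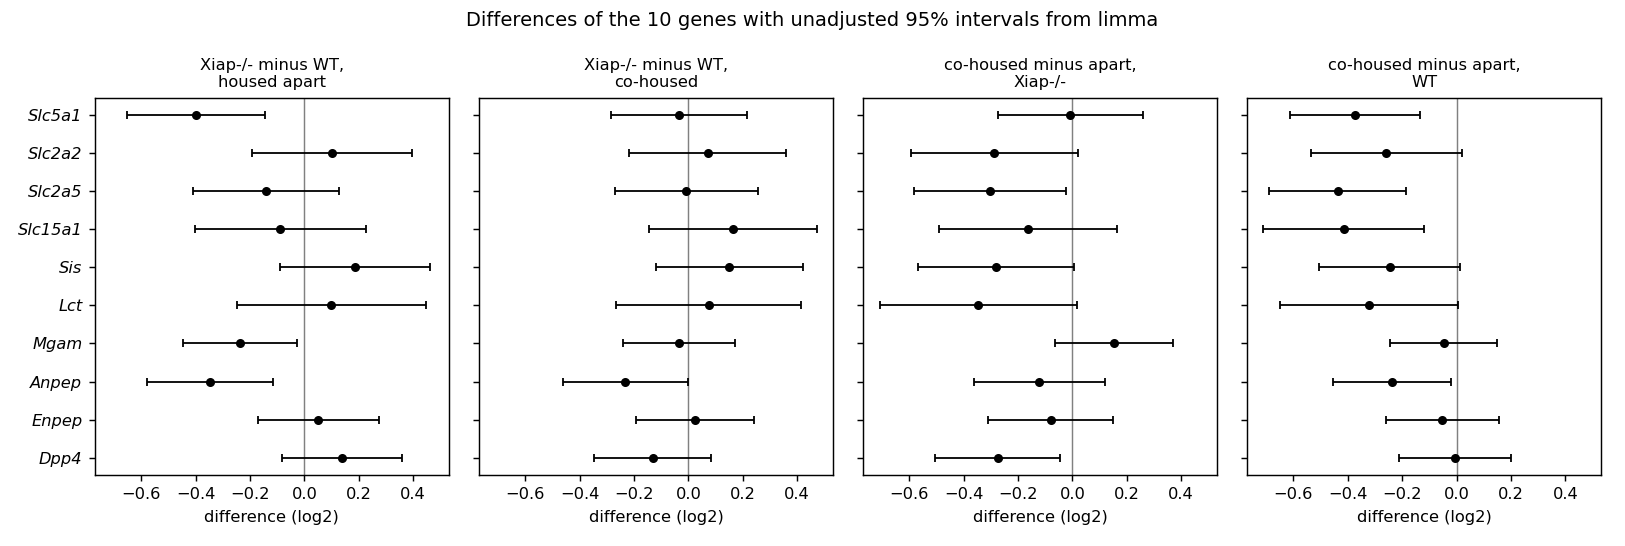
Difference in normalized level (log2, horizontal axis) of the 10 genes with its unadjusted 95% interval from limma, for Xiap-/- minus WT mice in each housing (left) and co-housed minus separately housed mice in each genotype (right). The points of the housing panels lie left of 0 except for Mgam in Xiap-/- mice, whereas those of the genotype panels lie on both sides of 0.

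Averaging the housing difference over the genotypes, a comparison added after the data were seen, gave 0 of 10 genes past the threshold by limma, where 0.179% of all genes passed. At an unadjusted p under 0.05 it gave 7 of 10 genes, beside 1371 of all genes. Slc2a5 came nearest, with a difference of -0.37 ± 0.09 (SE; adjusted p = 0.0752), followed by Lct at -0.33, Slc15a1 at -0.29, Slc2a2 at -0.27 and Sis at -0.26. The call on Slc2a5 depended on single libraries: without WT mouse 4 housed apart, which was the lowest of its group for 5 of the 10 genes, the difference was -0.41 (adjusted p = 0.0138), and over 26 alternatives the adjusted p lay between 0.0138 and 0.233. Without the same mouse, Slc15a1 and Lct also passed (adjusted p = 0.0386 and 0.0295), as did Slc2a5 and Slc15a1 between the housings of WT mice alone (adjusted p = 0.0375 and 0.0408). Each of these passed in 1 alternative only, of 26 for the averaged difference and of 27 in WT mice. The highest adjusted p by limma was 0.443 for Slc15a1 and 0.459 for Lct averaged. In WT mice it was 0.546 for Slc2a5 and 0.640 for Slc15a1.

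Between the genotypes the differences went in both directions, and the most negative ones were those of Slc5a1 and Anpep housed apart and of Anpep and Dpp4 co-housed. Housed apart, 5 of the 10 genes had a higher and 5 a lower mean in Xiap-/- than in WT mice, with a median difference of -0.02, beside -0.00 over all genes. By limma 0 of 10 passed, where 0.452% of all genes did, and 3 of 10 had an unadjusted p under 0.05, beside 1506 of all genes. Co-housed, 5 were again higher and 5 lower, with a median of 0.01, and 0 of 10 passed, where 0.0315% of all genes did. There 1 of 10, Anpep, had an unadjusted p under 0.05, beside 1144 of all genes. None of the 10 genes separated the genotypes without overlap in either housing, while 1.87% of all genes did so housed apart and 3.09% co-housed.

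Anpep (chromosome 7, 79821803 to 79861059, minus strand), the aminopeptidase that removes neutral residues, had a lower mean in Xiap-/- mice in both housings. It was at 10.83, 10.72, 11.09 and 10.90 in Xiap-/- mice housed apart, against 10.92 to 11.58 with a median of 11.21 in WT mice housed apart. It was at 10.74, 10.68, 11.07, 10.66 and 10.67 in co-housed Xiap-/- mice, against 10.97, 11.08, 11.05, 11.09 and 10.79 in co-housed WT mice. All but 1 Xiap-/- mouse of each housing lay below every WT mouse of that housing, and the exception was replicate 3 both times. The difference was -0.35 ± 0.11 housed apart (SE; limma, adjusted p = 0.141) and -0.23 ± 0.11 co-housed (adjusted p = 0.409).

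Averaged over the housings, a comparison likewise added after the data were seen, Anpep fell by 0.29 on the log2 scale (SE 0.08; limma, adjusted p = 0.0497), a 1.22-fold lower level in Xiap-/- mice. It was the only one of the 10 genes to pass, where 2.06% of all genes passed, and 2 of 10 had an unadjusted p under 0.05, beside 1953 of all genes. The call stands at the threshold: over 26 alternatives its adjusted p lay between 0.0043 and 0.263, and it passed in 6 of 20 fits that each left out 1 mouse. It did not pass without the filter on low levels (adjusted p = 0.0623) or with the sign of depth as a covariate (adjusted p = 0.263). The difference itself lay between -0.33 and -0.25 in all of them.

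Slc5a1, whose levels are given above, had a lower mean in Xiap-/- than in WT mice housed apart, with a difference of -0.40 ± 0.13 (SE; limma, adjusted p = 0.122), with 3 of 4 Xiap-/- mice below every WT mouse. Co-housed the difference was -0.03 ± 0.12 (adjusted p = 0.936). Housed apart, Slc5a1 and Anpep both passed when WT mouse 5 housed apart was left out (adjusted p = 0.0352 and 0.0497) and when libraries were weighted by quality (adjusted p = 0.0066 and 0.0180), and Slc5a1 passed after quantile normalization (adjusted p = 0.0252). Across 27 alternatives the adjusted p lay between 0.0066 and 0.868 for Slc5a1 and between 0.0180 and 0.868 for Anpep. The genotype comparison between mice housed apart and the housing comparison in WT mice share the WT mice housed apart, which were the highest group for both genes.

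Mgam was the remaining gene with an unadjusted p under 0.05 housed apart, with a difference of -0.24 ± 0.10 (SE; limma, adjusted p = 0.255), and it differed by -0.03 ± 0.10 co-housed (adjusted p = 0.917). The other disaccharidases had higher means in Xiap-/- mice in both housings without passing. For Sis the difference was 0.18 ± 0.14 housed apart and 0.15 ± 0.13 co-housed, and for Lct 0.10 ± 0.17 and 0.07 ± 0.17 (SE). For Slc2a2, Slc2a5, Slc15a1, Enpep and Dpp4 the differences lay between -0.14 and 0.14 housed apart and between -0.13 and 0.16 co-housed.

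The spread between mice was unequal across the groups. WT mice housed apart had the largest SD of the 4 groups for 10 of 10 genes, and for 49.2% of all genes tested. Their SDs ran from 0.19 to 0.48 with a median of 0.31, against medians of 0.16 in co-housed Xiap-/- mice, 0.13 in co-housed WT mice and 0.15 in Xiap-/- mice housed apart. Within that group, mouse 6 was highest for 6 genes (Slc5a1, Slc2a2, Slc15a1, Lct, Mgam and Anpep) and mouse 5 for the other 4. Mouse 2 was lowest for 5 genes (Slc2a2, Sis, Mgam, Enpep and Dpp4) and mouse 4 for the remaining 5. Mouse 3 of the Xiap-/- mice housed apart was highest in its group for 8 genes, and mouse 2 of the co-housed Xiap-/- mice lowest in its group for 8. The highest level was spread over 4 mice in co-housed Xiap-/- mice and over 4 in co-housed WT mice, where mouse 5 was lowest for 6 genes. The limma fit takes a common residual spread per gene for the 4 groups. For the 10 genes, its SEs, intervals and p-values can thus be too small where WT mice housed apart are compared with another group. In comparisons between the other groups they can be too large.

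The mean of the 10 levels per library was 9.34 to 9.62 in co-housed Xiap-/- mice (median 9.58) and 9.40 to 9.61 in co-housed WT mice (median 9.59). It was 9.62 to 9.92 in Xiap-/- mice housed apart (median 9.67) and 9.46 to 10.15 in WT mice housed apart (median 9.82). Only 1 co-housed Xiap-/- mouse just reached the lowest Xiap-/- mouse housed apart, and in WT mice 2 mice housed apart stood below most co-housed ones.

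Over the libraries the mean of the 10 genes was high where the mean of villus absorptive cell markers was high. All 15 of the 15 villus markers were measured and tested, and Nt5e was the lowest at 5.13 and Fabp2 the highest. By limma 0 of 15 passed between the housings. In co-housed mice 10 of 15 were lower in Xiap-/- mice (median -0.13, 7 with an unadjusted p under 0.05) and 8 of 15 in WT mice (median -0.05, 1 with an unadjusted p under 0.05). After quantile normalization it was 9 of 15 in Xiap-/- mice (median -0.11) and 5 of 15 in WT mice (median 0.03), where 7 of the 10 genes described here were lower. Their summed level, on the same log2 scale, was 15.36 to 15.67 in co-housed Xiap-/- mice, 15.43 to 15.60 in co-housed WT mice, 15.50 to 16.00 in Xiap-/- mice housed apart and 15.31 to 15.98 in WT mice housed apart. Over the 20 libraries, which share the groups and their unknown depth, the mean of the 10 genes had a Pearson correlation of 0.88 with the mean of the villus markers and -0.68 with that of 13 crypt stem and dividing cell markers. The summed crypt level was 10.26 to 10.53 in co-housed Xiap-/- mice, 10.32 to 10.50 in co-housed WT mice, 9.96 to 10.48 in Xiap-/- mice housed apart and 10.14 to 10.53 in WT mice housed apart, with Lgr5 the lowest marker at 4.69 and Slc12a2 the highest at 8.10. Between the housings 10 of 13 crypt markers had higher means in co-housed mice in each genotype, and 0 passed by limma. Their median was 0.10 in Xiap-/- and 0.08 in WT mice, with 1 at an unadjusted p under 0.05 in each. After quantile normalization it was again 10 of 13 in each, with medians of 0.10 and 0.08. In bulk samples fewer villus cells and less RNA of the 10 genes per cell cannot be told apart, and the part of the villus share in the housing differences was not tested.

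**Figure D3:**
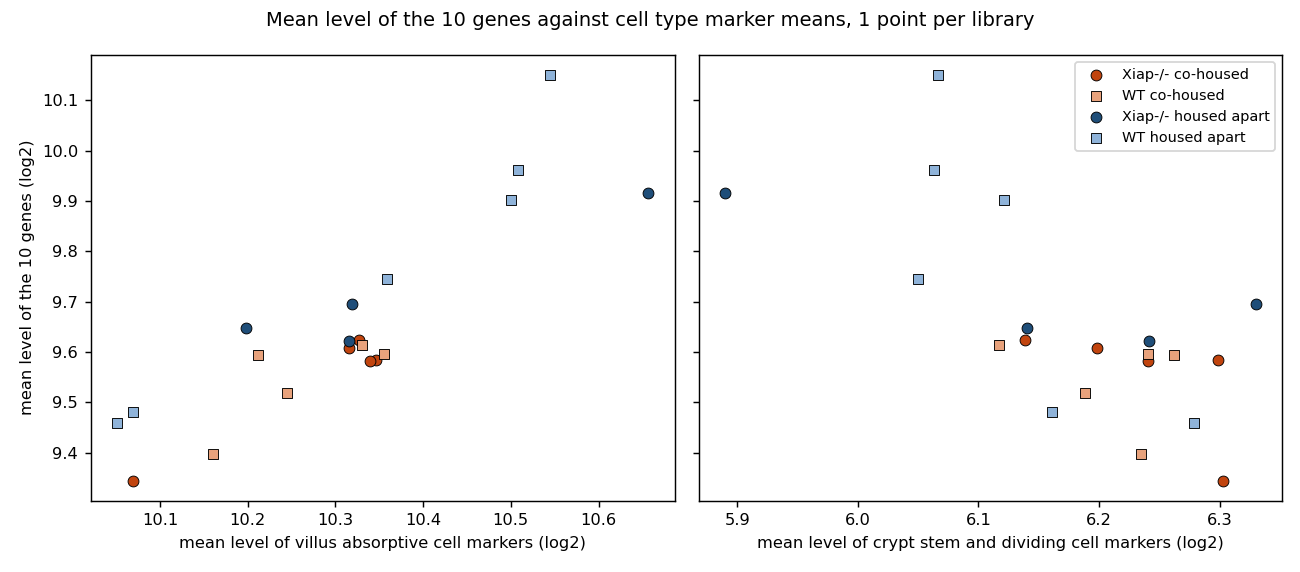
Mean level of the 10 genes (log2, vertical axis) against the mean level of the villus absorptive cell markers (left) and of the crypt stem and dividing cell markers (right), 1 point per library, by group. The points run upwards on the left and downwards on the right. The highest mean of the 10 genes (10.15) and the lowest villus marker mean (10.05) are both in WT mice housed apart.

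The relation to the villus markers was weakest for Mgam. The correlation with the villus marker mean was 0.87 for Sis, 0.86 for Enpep, 0.82 for Slc2a2, 0.79 for Dpp4, 0.78 for Slc2a5 and Lct, 0.74 for Slc15a1, 0.61 for Slc5a1 and 0.46 for Anpep. It was 0.10 for Mgam, and 0.21 after the group means were removed. With the group means removed, Anpep had 0.62, Slc15a1 0.75, Slc5a1 0.77, Lct 0.78, Slc2a2 0.82, Dpp4 0.84, Enpep 0.86, Slc2a5 0.88 and Sis 0.91.

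Of the other marker lists the goblet list was the most closely related. It (6 of 6 markers measured, 5 tested) had a correlation of 0.71 with the mean of the 10 genes, with Zg16 highest at 12.80, although Muc2 was near the bottom of the range at -0.83. The Paneth list (6 of 6 tested) had one of 0.01, the T cell list (8 of 10 tested, Gzma highest at 9.16 and Cd4 at -0.51) one of 0.48, and the B and plasma cell list (2 tested) one of -0.15. The summed T cell level was 9.80 to 10.92 in co-housed Xiap-/- mice, 9.51 to 10.32 in co-housed WT mice, 10.19 to 11.05 in Xiap-/- mice housed apart and 10.02 to 10.91 in WT mice housed apart. The housing median of the T cell markers was -0.05 in Xiap-/- and -0.30 in WT mice, and that of the goblet markers -0.10 in Xiap-/- and -0.20 in WT mice, or -0.015 in Xiap-/- and -0.093 in WT mice after quantile normalization. The myeloid and mast cell list (3 of 10 tested, Fcer1g highest at 5.56) had a correlation of 0.53. The hepatocyte list (2 of 10 tested, Cps1, which enterocytes also express, at 9.14) had one of -0.20, and its second tested gene Ttr, with a mean level of 4.11, was 0.42 ± 0.10 higher in Xiap-/- than in WT mice housed apart (SE; limma, adjusted p = 0.0346). Of the stromal markers only Vim was abundant enough to be tested, with a mean of 4.08, and of the kidney markers none was.

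Markers of the position along the intestine were mixed. Of the proximal markers Adh1, an alcohol dehydrogenase, was 0.52 ± 0.12 higher in Xiap-/- than in WT mice housed apart (SE; limma, adjusted p = 0.0492), whereas the median of the 5 tested proximal markers was -0.12. Averaged over the genotypes Adh1 was lower in co-housed mice, by -0.41 ± 0.09 (adjusted p = 0.0265), with a proximal median of 0.06. The distal list, led by the ileal bile acid binding protein Fabp6 at 12.20, had a summed level of 12.46 to 12.89 in co-housed Xiap-/- mice, 11.65 to 12.82 in co-housed WT mice, 12.29 to 12.76 in Xiap-/- mice housed apart and 12.53 to 13.01 in WT mice housed apart. Its correlation with the mean of the 10 genes was 0.46, and that of the proximal list 0.27. The part of the sampled segment in the differences was not tested.

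**Figure D4:**
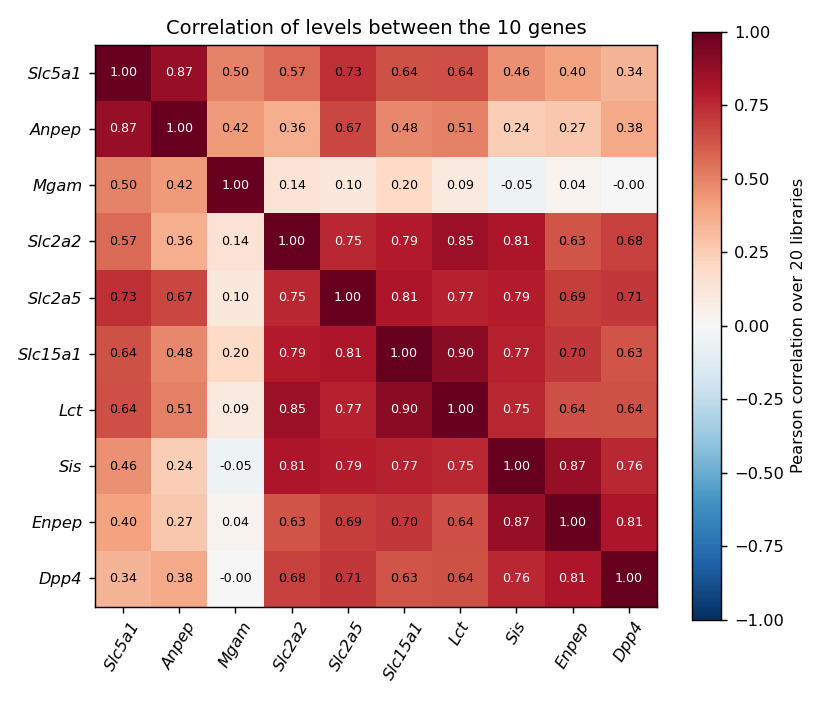
Pearson correlation of the normalized levels between the 10 genes over the 20 libraries, shown as colour from -1 to 1 with the value in each cell. Mgam stands apart from the other genes, and Slc5a1 and Anpep form a pair.

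Among themselves the 10 genes fell into unequal company. The strongest relations over the 20 libraries were those of Slc15a1 with Lct (0.90), Slc5a1 with Anpep (0.87) and Sis with Enpep (0.87), and after removal of the group means these were 0.90, 0.83 and 0.93. The median correlation of a gene with the other 9 was 0.76 for Sis, 0.73 for Slc2a5 and 0.70 for Slc15a1, and lowest for Anpep (0.42) and Mgam (0.10). Sis and Mgam, which encode related enzymes of sucrose and starch digestion, had a correlation of -0.05, and of 0.22 within groups. All of these share library and depth and are given as descriptions.

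The genes outside the 10 whose levels most resembled their scaled mean over the 20 libraries were Cdhr2, a protocadherin linking microvilli (r = 0.92), the apolipoprotein Apoa4 (0.92), the cholesterol transporter Npc1l1 (0.91), the neutral amino acid transporter Slc6a19 (0.91) and the small GTPase Rhoc (0.90). For single genes, a search made after their values were seen gave the peptidases Lap3 and Dpep1 for Slc2a5 (0.92 and 0.91), Apoc3 for Lct (0.95) and the brush-border meprin Mep1b for Enpep (0.90). For Mgam the nearest of the 9521 genes was Xiap itself (0.85, and 0.78 with group means removed), whose correlation with the other 9 genes lay between -0.20 for Sis and 0.58 for Slc5a1.

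Most other genes of sugar, peptide and amino acid handling also had lower means in co-housed mice. Of 20 other genes of sugar digestion and transport, 19 were tested and 0 passed by limma in any of the 5 planned comparisons. Between the housings 17 of 19 had lower means in co-housed Xiap-/- mice (median -0.24, 9 with an unadjusted p under 0.05) and 17 of 19 in co-housed WT mice (median -0.16, 6 with an unadjusted p under 0.05). After quantile normalization it was 17 of 19 in Xiap-/- mice (median -0.22) and 16 of 19 in WT mice (median -0.12). Khk, the kinase that commits fructose to breakdown, with a mean level of 10.53, differed by -0.21 in both genotypes. In the genotype comparison housed apart 16 of 19 had higher means in Xiap-/- mice, with a median of 0.14, beside -0.02 for the 10 genes above.

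Other brush-border and cytosolic peptidases gave 13 tested genes and 0 calls in those 5 comparisons by limma. In co-housed mice 11 of 13 were lower in Xiap-/- mice (median -0.27, 6 with an unadjusted p under 0.05) and 12 of 13 in WT mice (median -0.24, 6 with an unadjusted p under 0.05). After quantile normalization it was 11 of 13 in either, with medians of -0.18 in Xiap-/- and -0.13 in WT mice. Cndp2, a cytosolic dipeptidase, with a mean level of 10.19, differed by -0.19 in Xiap-/- and -0.26 in WT mice. The mean of these 13 genes had the highest correlation of the lists with the mean of the 10 genes, 0.92, followed by 0.91 for the amino acid transporters.

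Of the 15 amino acid transporters and partners 12 were tested. Between the housings 10 of 12 were lower in co-housed Xiap-/- mice (median -0.18, 6 with an unadjusted p under 0.05) and 11 of 12 in co-housed WT mice (median -0.12, 0 with an unadjusted p under 0.05), and 0 passed by limma in the 5 planned comparisons. After quantile normalization it was 10 of 12 in Xiap-/- mice (median -0.12) and 9 of 12 in WT mice (median -0.05). Averaged over the housings, Slc36a1, a proton-coupled transporter of small amino acids, was lower in Xiap-/- mice, by -0.32 ± 0.07, and Slc6a20a, a transporter of imino acids, was higher, by 0.39 ± 0.10 (SE; limma, adjusted p = 0.0233 and 0.0433).

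Regulators of these genes and scaffold proteins of the brush border made up the last list. Of 31 genes 29 were tested and 0 passed by limma in the 5 planned comparisons. In co-housed mice 15 of 29 were lower in Xiap-/- mice (median -0.01, 5 with an unadjusted p under 0.05). In WT mice it was 19 of 29 (median -0.05, 6 with an unadjusted p under 0.05). After quantile normalization it was 12 of 29 in Xiap-/- mice (median 0.03) and 14 of 29 in WT mice (median 0.00). For the factors whose letters were searched, the co-housed minus separately housed difference in Xiap-/- mice was -0.04 for Cdx2, -0.07 for Gata4, -0.06 for Gata5, -0.02 for Gata6, 0.15 for Hnf4a and -0.50 ± 0.27 for Hnf4g (SE; limma, adjusted p = 0.501). In WT mice it was -0.01 for Cdx2, 0.10 for Gata4, -0.04 for Gata5, 0.01 for Gata6, 0.11 for Hnf4a and -0.00 for Hnf4g. Atp1b1, a subunit of the sodium pump, with a mean level of 10.86, differed by -0.02 in Xiap-/- and -0.05 in WT mice, and Vil1, the actin bundler villin at 10.82, by -0.17 in Xiap-/- and -0.06 in WT mice.

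Other annotated genes overlap 5 of the 10 on the genome. They are the pseudogenes Gm15936 and 5033423K11Rik within Slc5a1, the antisense gene 1700112D23Rik at Slc2a2, Gm44974 at Anpep, the pseudogene Gm42628 at Enpep and the antisense gene Gm13561 at Dpp4. Whether the counting used the strand is not given in the sources used here, so reads of Slc2a2 and Dpp4 may not have been told from those of their antisense partners. Gm15936 lies on the same strand as Slc5a1, and Gm44974 on the same strand as Anpep. For these the strand could not separate the reads where the genes overlap.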

How the data were processed

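Small intestinal crypt RNA of 20 mice was measured by bulk 3′ sequencing with unique molecular identifiers, per the labels' protocols. The authors deposited normalized values on a log2 scale for 23020 genes. DESeq2 1.18.1 and GRCm38.p6 are named, per the submitters' processing notes, while the transformation, the aligner and the use of strand are not given in the sources used here. No counts are at hand, so depth is unknown and no counting interval is given.

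Values were used as deposited, without a pseudocount. In R 4.3.3 with limma 3.58.1, the 4 group means were fitted together for the 9521 genes with a mean of at least log2 of 10 (lmFit, then eBayes with trend and robust, 16 residual degrees of freedom). Tests were two-sided, with Benjamini-Hochberg adjustment over all genes tested and a threshold of 0.05. The code was also run on simulated data with independent genes and an equal spread in all groups. Such data cannot show how the tests hold under the unequal spread seen here. The fit assumes a common spread per gene in all groups. Planned comparisons were the genotype in each housing, the housing in each genotype and their interaction, and the averaged differences were added after seeing the data. P-values rest on mice taken as independent, although cages are not named. Errors of means are SDs and those of differences SEs.

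A summed marker level is log2 of the sum of the list's measured genes after the log2 values were raised to linear values, and a list's mean level averages its tested genes. Named genes are the 10 members, passing genes of each related list or else the 2 with the highest mean level, the 5 genes most like the members' scaled mean, the ends of each marker list, and others that the text says were picked with their values known. Some genes that this rule names are not reported here. The members and lists were chosen with earlier results of these data known. Alternatives left out each mouse, the filter, the groups not compared or the trend, or used quantile normalization, library weights, a sign of depth (the share of genes with a mean under -3 that stood 0.015 above their median) or the replicate number as a block. Positions are from GENCODE M21, promoters from RefSeq, with 10 of 10 matched. Protein sequences were not used here.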

Additional observations from a re-analysis of the deposited data

Results flagged for a closer look

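Of 40 combinations of gene and group, 2 had a mouse farther from its group than the 95% critical value of Dixon's gap test allows, and chance gives such a gap in about 1 in 20 groups. Anpep was at 11.07 in co-housed Xiap-/- mouse 3, where the other 4 mice of the group lay between 10.66 and 10.74. Without this mouse the Anpep difference between co-housed Xiap-/- and WT mice was -0.31 (limma, adjusted p = 0.298), against -0.23 with it, and the difference averaged over the housings was -0.33 (adjusted p = 0.0317).

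Dpp4 was at 8.31 in co-housed Xiap-/- mouse 2, where the other 4 lay between 8.60 and 8.69. That mouse was the lowest of its group for 8 of the 10 genes, and its mean over the 10 genes, 9.34, was the lowest of all 20 libraries. Without it the Dpp4 difference between co-housed and separately housed Xiap-/- mice was -0.21 (limma, adjusted p = 0.623), against -0.28 with it.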

How the results depend on the processing

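The differences of the 10 genes gave 1860 values under the alternatives, of which 73 changed sign, none of them past the threshold. Quantile normalization turned, between the genotypes, Enpep co-housed (-0.0082) and Dpp4 averaged (-0.020). Between the housings it turned Mgam (0.10), Enpep (0.028) and Dpp4 (0.064) in WT mice, Slc5a1 in Xiap-/- mice (0.038) and Enpep averaged (0.0064). Library weights turned Slc2a5 between the genotypes co-housed (0.00020), Dpp4 between the genotypes averaged (-0.013), Slc5a1 between the housings of Xiap-/- mice (0.097) and, in the interaction, Slc2a2 (0.091), Sis (0.041) and Lct (0.044). The sign of depth as a covariate turned Enpep in the interaction (0.018) and, between the genotypes averaged, Slc15a1 (-0.0054) and Dpp4 (-0.027).

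Leaving out each mouse in turn gave ranges that cross 0. Between the genotypes housed apart they were -0.021 to 0.22 for Slc2a2, -0.200 to 0.031 for Slc15a1, -0.028 to 0.26 for Lct and -0.017 to 0.11 for Enpep. Between the genotypes co-housed they were -0.083 to 0.015 for Slc5a1, -0.069 to 0.066 for Slc2a5 and -0.0094 to 0.081 for Enpep, and averaged they were -0.019 to 0.097 for Slc15a1 and -0.033 to 0.037 for Dpp4. Between the housings they were, in WT mice, -0.10 to 0.0078 for Mgam, -0.12 to 0.0059 for Enpep and -0.077 to 0.059 for Dpp4, and in Xiap-/- mice -0.064 to 0.10 for Slc5a1. In the interaction they were -0.15 to 0.093 for Slc2a2, -0.11 to 0.067 for Sis, -0.18 to 0.10 for Lct and -0.086 to 0.041 for Enpep.

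Of the 10 genes, the number past the threshold ran with a mouse left out between 0 and 2 for the genotypes housed apart, 0 and 2 for the housings of WT mice, 0 and 1 for the genotypes averaged and 0 and 3 for the housings averaged. Quantile normalization gave 1 housed apart and 2 for the genotypes averaged, and library weights 2 in both and 1 for the housings averaged (Slc2a5). The genotypes averaged gave 0 without the filter and 0 with the sign of depth. The cause of these changes was not tested.

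The number of all genes past the threshold moved more. With a mouse left out it ran between 9 and 697 for the genotypes housed apart (43 in the fit reported), 1 and 12 co-housed (3), 36 and 957 averaged (196), 0 and 66 for the housings of WT mice (0), 2 and 64 of Xiap-/- mice (14) and 6 and 226 averaged (17). The highest counts came without WT mouse 5 housed apart (genotypes housed apart and averaged, housings of Xiap-/- mice) or without WT mouse 4 housed apart (the others). Without the filter the counts were 10 for the genotypes co-housed, 5 for the housings of WT mice and 27 for the housings averaged. With only the groups compared they were 12 for the genotypes housed apart, 142 co-housed and 169 for the housings of Xiap-/- mice. Without trend and robust moderation they were 65 for the genotypes housed apart and 23 for the housings of Xiap-/- mice. Library weights gave 385, 159 and 791 for the genotypes housed apart, co-housed and averaged, 5, 224 and 135 for the housings of WT mice, of Xiap-/- mice and averaged, and 4 for the interaction. The sign of depth gave 3 and 6 for the genotypes housed apart and averaged, and 1 and 4 for the housings of Xiap-/- mice and averaged.

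Same-numbered mice correlated in their deviations by 0.075 to 0.25 between the genotypes housed apart and by -0.13 to 0.13 co-housed. Between the housings it was -0.42 to 0.17 in WT mice and -0.064 to 0.22 in Xiap-/- mice. A mouse correlated best with its own number in 1 of 4, 0 of 5, 1 of 5 and 2 of 4 cases, in that order. These values show no clear pairing by replicate number, but they cannot exclude it. With the replicate number as a block, all genes past the threshold were 350 and 582 for the genotypes housed apart and averaged, 189 and 98 for the housings of Xiap-/- mice and averaged, and 10 for the interaction, while 1 of the 10 genes, Slc2a5, passed for the housings averaged. The block turned Slc15a1 between the genotypes housed apart (0.068), Mgam (0.0021) and Dpp4 (0.012) between the housings of WT mice and Slc5a1 of Xiap-/- mice (0.021). Depth is unknown, and the number of mice, 4 to 6 in a group, limits the precision of each difference.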

Other observations

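The level of 1 gene minus that of another in the same library is free only of what shifts both genes equally. It shows how the pair shifted against each other, while a factor acting unequally on them, such as the villus share, can remain. The absolute value of such a difference has no meaning here. Of 45 pairs of the 10 genes, 3 (6.67%) separated the genotypes housed apart without overlap and 0 did so co-housed. The share among pairs of all genes tested was not computed, so these counts have nothing to be measured against. The pairs named here were picked with their values known, so no test is given. Slc2a2 minus Slc5a1, the basolateral against the apical glucose transporter, was -2.29 to -2.21 in Xiap-/- mice housed apart, against -3.17 to -2.38 in WT mice housed apart, without overlap. Co-housed, it was -2.75 to -2.38 in Xiap-/- mice and -2.84 to -2.43 in WT mice. Slc2a5 minus Slc5a1 was -3.64 to -3.34 in Xiap-/- mice housed apart, against -3.90 to -3.14 in WT mice housed apart, and Slc15a1 minus Slc5a1 was -1.90 to -1.40 in Xiap-/- mice housed apart, against -2.20 to -1.39 in WT mice housed apart, both with overlap. Sis minus Lct was 0.72 to 0.94 in Xiap-/- mice housed apart, within the 0.12 to 1.07 of WT mice housed apart. Enpep minus Anpep was -1.54 to -1.29 in Xiap-/- mice housed apart, against -2.15 to -1.43 in WT mice housed apart. Dpp4 minus Anpep was -2.10 to -1.94 in Xiap-/- mice housed apart, against -2.86 to -2.09 in WT mice housed apart, with an overlap at 1 WT mouse. Sis minus Mgam was 0.26 to 0.79 in Xiap-/- mice housed apart, against -0.36 to 0.55 in WT mice housed apart, and -0.22 to 0.25 in co-housed Xiap-/- mice, against -0.47 to 0.02 in co-housed WT mice.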
